A study of Homo sapiens with 8 samples.

Results

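Stable broad H3K4me3 domains are regions that were marked by a long H3K4me3 peak in every H3K4me3 library of HL-60 cells, with or without all-trans retinoic acid (ATRA). The peaks of the 4 H3K4me3 libraries were merged where they overlapped or touched, and a merged region was kept if it held a peak of at least 8 kb in each of the 4 libraries. Of 19906 merged regions, 376 were selected on these measured widths, and 11413 had a peak of any width in all 4 libraries. The HL-60 line was established from a human promyelocytic leukemia. The ATRA libraries come from cells kept for 4 days in 1 µM ATRA and the control libraries from cells given only the solvent, ethanol, both with fresh medium and agent midway. Chromatin immunoprecipitation sequencing with antibodies to H3K4me3 and H3K27ac gave 2 replicates for each mark and condition, 8 libraries in all. All libraries come from the same line, the labels do not say whether replicates were separate cultures, and the spread between replicates may therefore be technical.

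Trimethylation of lysine 4 on histone H3 (H3K4me3) marks the promoters of active and poised genes, usually as a short peak just after the transcription start site (TSS). A minority of promoters carry the mark over much longer stretches that reach into the gene body, and such broad domains are known from many cell types to lie at genes of cell identity and at highly transcribed genes. Acetylation of lysine 27 on histone H3 (H3K27ac) marks active promoters and enhancers, and long stretches of it are a known feature of genes that are strongly used in a cell type. In HL-60 cells ATRA drives promyelocyte-like cells towards granulocytes.

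The widest of the 376 regions, chr17:56396810-56433693 in hg19, held the start sites of TSPOAP1, which encodes a binding partner of a mitochondrial membrane protein, and of SUPT4H1, which encodes a subunit of a transcription elongation factor. It also held the hairpin of MIR142, the microRNA gene used widely as a marker of blood cells, at chr17:56408593-56408679 on the minus strand. A further region, chr19:13946568-13962001, held no protein-coding start site but the hairpins of MIR23A, MIR27A and MIR24-2, and more than 80% of it lay under H3K27ac peaks in each of the 4 H3K27ac libraries. In all, 32 of 1562 RefSeq hairpins were found letter for letter inside 28 of the regions. Both mature arms of MIR142 and the 3p arms of the other hairpins are shown, because they come from the widest region and from a region without a protein-coding start that was wholly under H3K27ac in both ATRA libraries (15434 bp) and over 13534 and 12354 bp in the control libraries, with the seed (bases 2 to 8) in capitals.
hsa-miR-142-5p: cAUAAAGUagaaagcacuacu
hsa-miR-142-3p: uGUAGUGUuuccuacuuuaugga
hsa-miR-23a-3p: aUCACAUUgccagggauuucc
hsa-miR-27a-3p: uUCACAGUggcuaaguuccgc
hsa-miR-24-3p: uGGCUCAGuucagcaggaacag
No seed was shared between these 5 microRNAs.

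Promoters are shown for genes of the 2 widest regions and for the region with the largest H3K27ac difference between conditions, because these are the places where the marks were longest or differed most. Each is the 250 bases before the RefSeq start site (RefSeq table on GRCh38.p14, placed in hg19 by an exact match), read along the gene, with CpG dinucleotides in capitals.
SUPT4H1, chr17:56429563-56429812, minus strand: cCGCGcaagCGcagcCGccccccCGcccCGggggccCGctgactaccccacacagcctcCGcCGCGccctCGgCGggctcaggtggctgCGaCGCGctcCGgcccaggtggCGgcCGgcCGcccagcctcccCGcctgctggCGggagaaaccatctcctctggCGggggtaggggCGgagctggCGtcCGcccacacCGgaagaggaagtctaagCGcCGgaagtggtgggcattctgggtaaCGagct
PSMB8, chr6:32812457-32812706, minus strand: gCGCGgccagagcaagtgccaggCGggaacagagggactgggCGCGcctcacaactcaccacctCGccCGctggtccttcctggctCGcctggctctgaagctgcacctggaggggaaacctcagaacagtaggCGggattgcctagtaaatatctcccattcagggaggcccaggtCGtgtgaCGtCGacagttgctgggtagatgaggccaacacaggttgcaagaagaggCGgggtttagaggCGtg
PSMB9, chr6:32821719-32821968, plus strand: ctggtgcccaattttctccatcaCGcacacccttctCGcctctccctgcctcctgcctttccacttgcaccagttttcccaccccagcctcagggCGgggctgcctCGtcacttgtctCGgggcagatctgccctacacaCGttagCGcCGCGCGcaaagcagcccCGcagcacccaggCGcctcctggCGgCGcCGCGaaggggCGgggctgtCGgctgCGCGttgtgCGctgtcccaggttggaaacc
TAP1, chr6:32821482-32821731, minus strand: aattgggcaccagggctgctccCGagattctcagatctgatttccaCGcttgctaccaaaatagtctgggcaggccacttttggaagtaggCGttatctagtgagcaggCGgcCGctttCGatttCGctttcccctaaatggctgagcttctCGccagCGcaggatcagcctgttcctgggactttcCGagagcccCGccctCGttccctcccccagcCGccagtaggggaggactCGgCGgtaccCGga
TAP2, chr6:32806517-32806766, minus strand: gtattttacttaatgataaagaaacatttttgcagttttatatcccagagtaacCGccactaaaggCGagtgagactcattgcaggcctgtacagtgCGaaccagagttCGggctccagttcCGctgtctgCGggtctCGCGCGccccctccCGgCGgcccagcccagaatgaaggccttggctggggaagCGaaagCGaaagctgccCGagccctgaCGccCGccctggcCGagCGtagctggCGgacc
FRS3, chr6:41747639-41747888, minus strand: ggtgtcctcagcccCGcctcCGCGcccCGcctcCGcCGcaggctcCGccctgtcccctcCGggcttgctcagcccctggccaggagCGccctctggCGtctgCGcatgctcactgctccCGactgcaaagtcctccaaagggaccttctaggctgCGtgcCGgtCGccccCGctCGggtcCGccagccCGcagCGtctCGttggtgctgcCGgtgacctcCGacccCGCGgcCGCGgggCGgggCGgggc
The window of SUPT4H1 held 29 CpG dinucleotides, that of FRS3 29, and those of the 4 antigen-processing genes 14 to 21. TAP1 and PSMB9 start 488 bp apart on opposite strands, and the 2 windows share 13 bp.

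The H3K4me3 widths that chose the regions are given as a description, with no test. The smallest of the 4 widths of a region had a median of 9423.5 bp, with 8241.5 bp at the 10th and 13284 bp at the 90th percentile, and reached 29243 bp. At least 10 kb in every library was found for 144 regions, at least 15 kb for 16 and at least 20 kb for 7. The median longest peak was 11133.5 and 10748 bp in the ATRA libraries and 10954.5 and 9565 bp in the control libraries. Control replicate 2 gave the smallest width for 228 of the 376 regions, against 41, 61 and 46 in ATRA replicate 1, ATRA replicate 2 and control replicate 1. That library also had the fewest H3K4me3 peaks, 13241 against 16160 to 16487, and the fewest of at least 8 kb, 507 against 935 to 1242. It alone kept out 223 regions that passed in the other 3 libraries, whereas each of the other libraries alone kept out 14 to 31. When a peak among the 1000 longest of each library was asked for in place of 8 kb, an alternative chosen after the data were seen, 445 regions were found, and 361 of them were among the 376, or 96.0% of the 376 and 81.1% of the 445.

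The rule asked for a long peak of every library in the same merged region, so that much of the overlap between libraries was set by it. The median overlap of the longest peaks of a pair of libraries, as the shared length over the joined length, was between 0.866 and 0.926, and between 0.815 and 0.880 in narrower regions with a peak of at least 4 kb in each library. In 374 of the 376 regions the 4 longest peaks shared a stretch, whose median was 9125.5 bp. At the border of the rule, CDCA3/USP5, DACH1 and SAFB/SAFB2 were just inside with a smallest width of 8009, 8015 and 8016 bp. Just outside were RPS25/TRAPPC4 with 7990 bp, a region on chromosome 6 with the start of the RNA pseudogene RN7SL471P with 7982 bp, and RPL37 with 7972 bp.

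**Figure D1:**
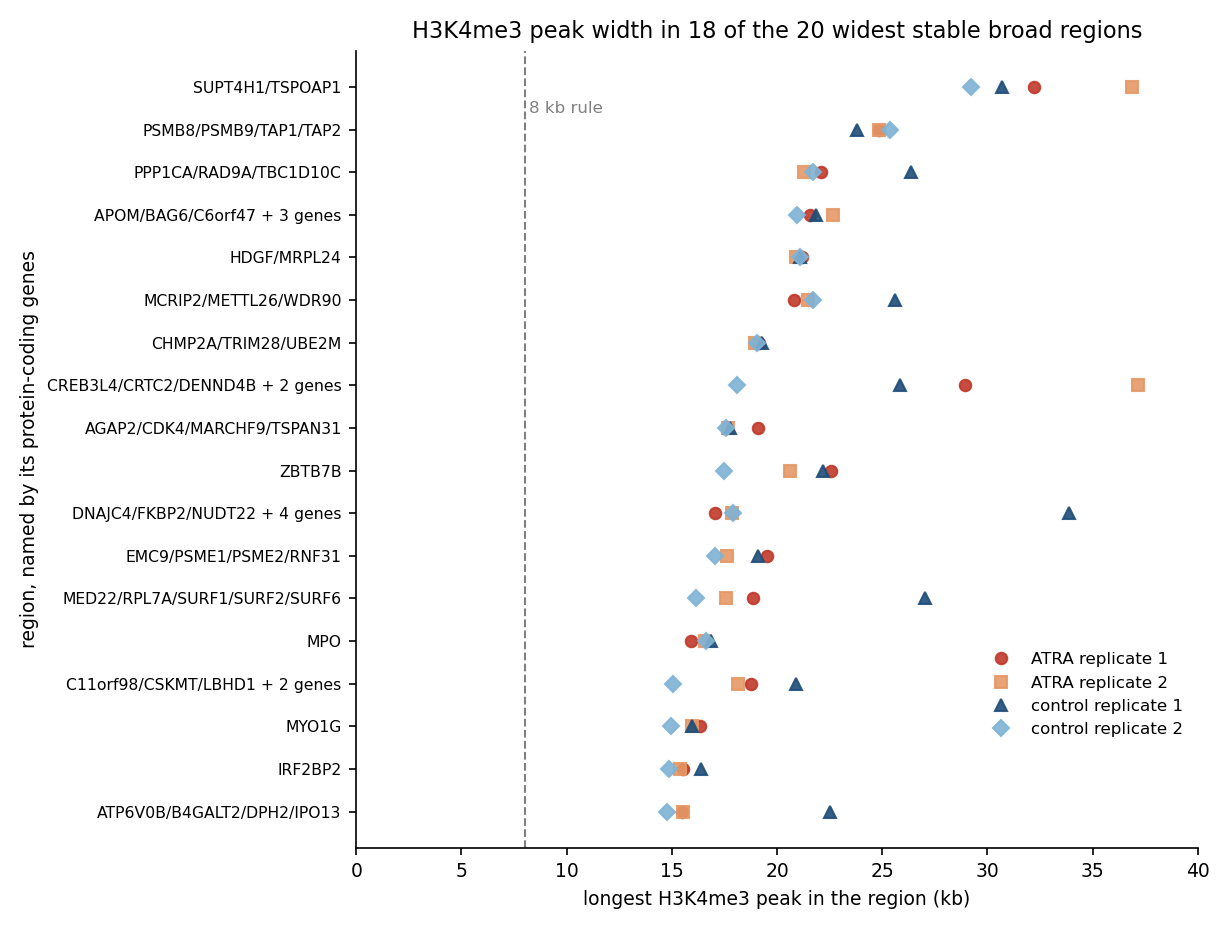
Width in kb of the longest H3K4me3 peak (x axis) of each library in 18 of the 20 regions with the largest smallest width (y axis); each symbol is 1 library and the dashed line is the 8 kb rule. All points lie to the right of the line, SUPT4H1/TSPOAP1 lies between 29.2 and 36.9 kb, and several regions with many genes extend further in control replicate 1 than in the other libraries.

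Among the 20 widest regions, 16 held 2 or more protein-coding genes and 4 held 1. At SUPT4H1/TSPOAP1 the longest peak was 32233 and 36884 bp in the ATRA libraries and 30704 and 29243 bp in the control libraries. The next widest, PSMB8/PSMB9/TAP1/TAP2 at chr6:32801183-32827216, encodes subunits of the immunoproteasome and the transporter that carries peptides to MHC class I molecules. Its peak was 24837 and 24839 bp under ATRA and 23793 and 25369 bp in the control, so the conditions overlapped. A second set of proteasome genes, EMC9/PSME1/PSME2/RNF31, with the subunits of the PA28 activator, had peaks of 19545 and 17615 bp under ATRA and 19106 and 17045 bp in the control. HDGF/MRPL24, at a growth factor and a mitochondrial ribosomal protein gene, was almost the same in all 4 libraries, from 20896 to 21182 bp. The other widest regions with several genes included TRIM28, a corepressor, in CHMP2A/TRIM28/UBE2M, and the cell cycle kinase gene CDK4 in AGAP2/CDK4/MARCHF9/TSPAN31.

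The 4 widest regions with a single gene were ZBTB7B, MPO, MYO1G and IRF2BP2. MPO encodes myeloperoxidase, the main enzyme of the primary granules of neutrophils. The MPO region, chr17:56345975-56362823, was 15914 and 16557 bp wide under ATRA and 16849 and 16627 bp in the control, and lay 33986 bp from the SUPT4H1/TSPOAP1 region. All of the MPO gene was inside it. ZBTB7B, a zinc finger transcription factor, had 22581 and 20595 bp under ATRA and 22187 and 17481 bp in the control. MYO1G, a myosin of blood cells, had 16337 and 15975 bp under ATRA and 15965 and 14959 bp in the control, and IRF2BP2, a transcriptional corepressor, had 15534 and 15389 bp against 16395 and 14842 bp.

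**Figure D2:**
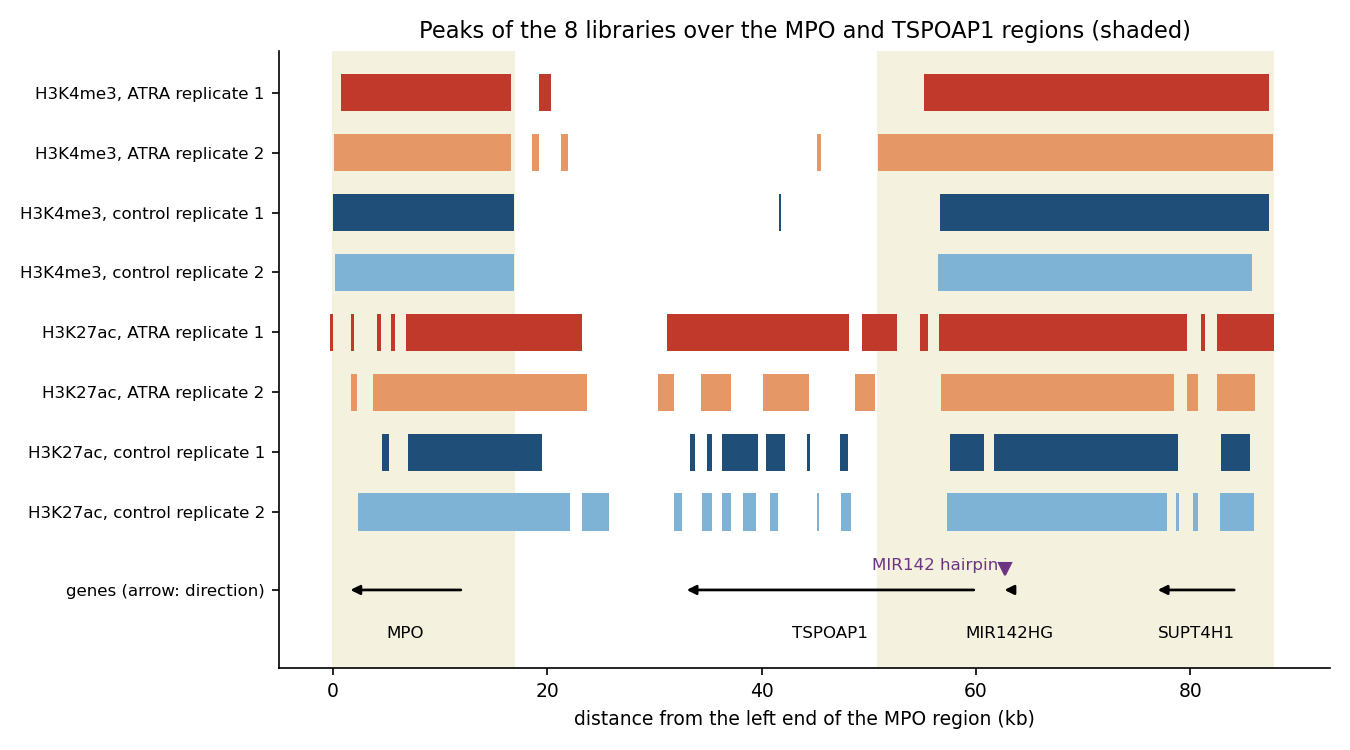
Peaks of the 8 libraries (bars, 1 row per library) over the MPO and SUPT4H1/TSPOAP1 regions (shaded), against the distance in kb from the left end of the MPO region; arrows show genes and their direction, and the triangle the MIR142 hairpin. Each H3K4me3 library has 1 long peak in each shaded region, and each H3K27ac library has a long peak over part of both.

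The labelled cell type was checked on the start sites of marker genes. Of 10 myeloid markers, 7 lay in an H3K4me3 peak in all 4 libraries, and MPO, SPI1 and CEBPA lay in stable broad regions. The start sites of the granule protease genes ELANE and AZU1 were under no H3K4me3 peak in any library, and that of PRTN3 was under a peak in the ATRA libraries alone. Of 14 markers of T, B, red, epithelial and other cells, 13 were under no peak in any library. The exception was the B cell gene CD79A, with peaks of 10578, 200 and 10055 bp in ATRA replicate 1, ATRA replicate 2 and control replicate 1.

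A protein-coding TSS lay in 366 of 376 stable broad regions (97.3%), close to the 96.9% of narrower stable regions and above the 81.5% of all 11413 regions, and many held more than 1. In all, 702 protein-coding genes started in them, 3.61% of the 19460 annotated and 6.60% of the 10635 that started in a region with H3K4me3 in all 4 libraries. A single protein-coding gene started in 154 (41.0%) and 2 or more in 212 (56.4%), of which 29 held 4 or more. For comparison, the 4851 narrower stable regions, with a peak of at least 4 kb in each library but short of 8 kb in at least 1, held a single gene in 75.1% and 2 or more in 21.8%. A longer region has more room for start sites, so that the number of genes is tied to the width that chose the regions. The largest number, 7 genes, was reached at DNAJC4/FKBP2/NUDT22/PLCB3/PPP1R14B/TRPT1/VEGFB. Where exactly 2 genes started in a region, they pointed away from each other in 66 of 129, in the same direction in 35 and towards each other in 28. Divergent pairs with starts at most 1 kb apart made up 31.0% of these regions and 53.2% of the 981 narrower regions with 2 genes.

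In the 154 regions with 1 gene, the mark lay mainly downstream of the most upstream annotated protein-coding start inside the region, the start site used here. Where a gene has several starts, this choice lengthens the downstream side and shortens the upstream side. The part it has in the asymmetry was not tested. From that start, the median length was 7767 bp in the direction of the gene and 3627 bp upstream. The downstream side was longer in 130 of 154 regions. The gene lay wholly inside the region in 18. At 5 kb downstream of the start, 85.7% and 87.7% of these regions were under an H3K4me3 peak in the ATRA libraries and 82.5% and 79.2% in the control libraries, against 24.3%, 25.1%, 16.7% and 11.3% of the narrower single-gene regions, a difference that the rule on width itself makes. At 5 kb upstream it was 26.0%, 20.8%, 24.0% and 19.5%. H3K27ac followed the same asymmetry over a shorter stretch. At 5 kb downstream, 36.4% and 48.7% of the regions were under an H3K27ac peak in the ATRA libraries and 26.0% and 41.6% in the control libraries, against 22.1%, 26.6%, 11% and 26.6% at 5 kb upstream.

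**Figure D3:**
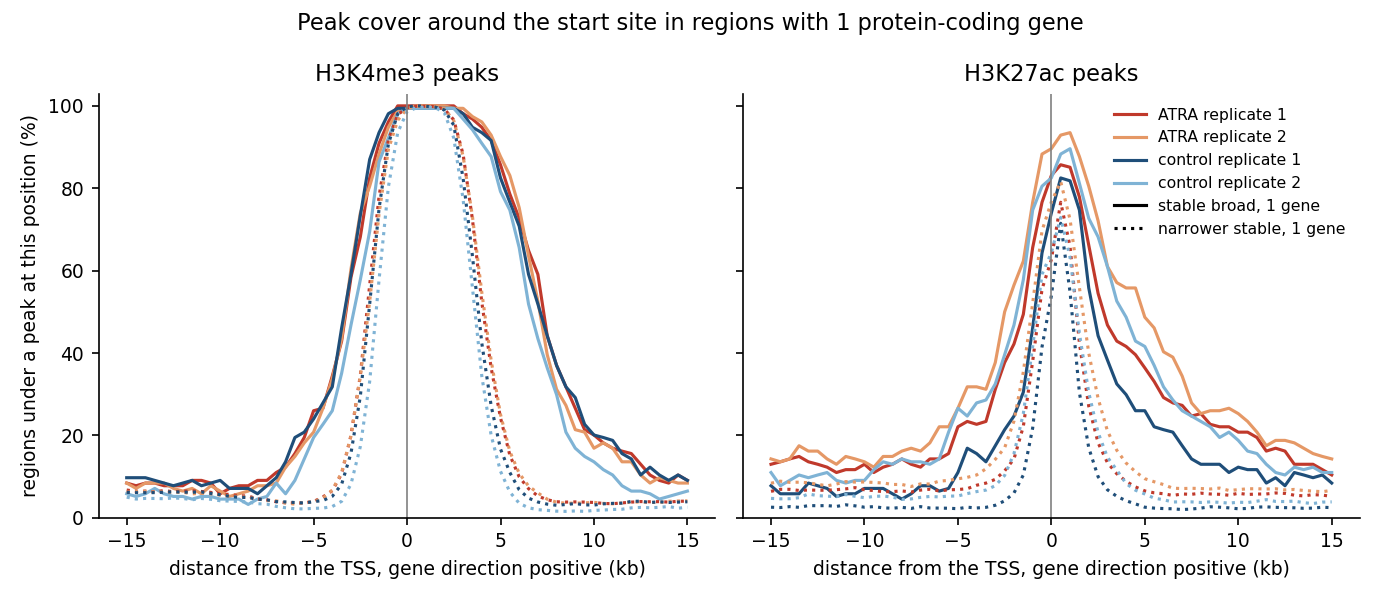
Percent of regions with 1 protein-coding gene that lie under an H3K4me3 peak (left) or an H3K27ac peak (right) at each distance in kb from the start site, with the gene direction positive; 1 line per library, solid for the 154 stable broad regions and dotted for the narrower stable regions. Measured from the most upstream annotated start inside the region, both marks reach further into the gene than upstream of it. The H3K27ac lines are highest within 1 kb of the start in every library.

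The largest numbers of members were on chromosomes 1 (46), 6 (38) and 11 (32), or 3.95, 5.94 and 5.39 for every 100 regions with H3K4me3 in all 4 libraries there. The X chromosome held 2 members among 350 such regions and chromosome 21 held 1 among 128. On chromosome 6, 22 lay between 25 and 34 Mb, the stretch with histone genes and the major histocompatibility complex, of 156 regions there with H3K4me3 in all 4 libraries. Neighbouring members were within 100 kb of each other in 48 pairs.

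Of the gene lists, transcription factors of the blood lineage had the most genes in stable broad regions, and nearly all of these had a region to themselves. Of 88 listed, 67 started in a region with H3K4me3 in all 4 libraries and 19 in a stable broad region, 28.4% of the 67, where the share over all genes was 6.60%. A single-gene region was found for 18 of the 19. The widest were ZEB2, GFI1, LYL1, IKZF1, LDB1 and BCL11A, and the others were MYC, MYB, MEF2D, BCL6, RUNX1, LMO2, ETV6, MZF1, CEBPA, RUNX2, IKZF2, SPI1 and ELF1. GFI1, a transcriptional repressor, had a smallest width of 12635 bp. H3K27ac covered 83.3% and 87.4% of its region in the ATRA libraries and 53.5% and 74.3% in the control libraries. LYL1, a helix-loop-helix factor of blood stem cells, was acetylated over nearly all of its region, 96.0% and 100% under ATRA and 84.1% and 98.3% in the control. SPI1, which encodes the myeloid master regulator PU.1, had a smallest width of 8093 bp and 88.3% and 92.2% under ATRA against 51.9% and 53.1% in the control. CEBPA, a factor needed for granulocyte formation, had 26.4% and 31.6% under ATRA and 6.5% and 40.7% in the control, so the conditions overlapped. MYB, which keeps blood progenitors dividing, split by replicate number instead, with 37.4% and 42.9% in the libraries numbered 1 and all of it in both libraries numbered 2.

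Ribosomal protein genes were also common but lay in shared regions. Of 77 with H3K4me3 in all 4 libraries, 14 (18.2%) were in stable broad regions and 13 of these shared the region with another gene. RPL7A was the widest, with a smallest width of 16170 bp, and FAU, RPL23A, RPL27A and RPL8 were among the next widest. H3K27ac covered 24.4% and 17.3% of the RPL8 region under ATRA and 22% and 30.3% in the control. At RPL7A it covered 47.2% and 56.5% under ATRA and 26.9% and 30.2% in the control.

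Genes of RNA and chromatin regulation followed. Of 57 splicing and RNA-binding genes, 9 (15.8%) were in members, HNRNPA2B1, HNRNPA1, U2AF2, HNRNPD, HNRNPU and RBM15 being the widest. Of 92 chromatin genes with H3K4me3, 12 (13%) were in members, the widest RING1, a Polycomb ubiquitin ligase, SETD1B, a subunit of an H3K4 methyltransferase complex, BRD2, a reader of acetylated histones, KDM6B, an H3K27 demethylase, BMI1 and ARID1A. The KDM6B region was acetylated over 75.0% and 72.3% under ATRA and 66.8% and 78.0% in the control, while that of BMI1 was at 13.8% and 31.7% against 13.8% and 45.4%. The core and cap of the proteasome gave 3 of 31, PSMA3, PSMC2 and PSMB1.

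Early response genes gave 8 of 46 (17.4%), led by ZFP36 and ZFP36L2, which encode proteins that destabilize mRNA, MYC, DUSP6, a phosphatase of MAP kinases, FOSL1 and BTG1. The ZFP36L2 region was acetylated over 97.3% and 100% under ATRA and 71.2% and 97.8% in the control, and that of DUSP6 over 95.4% and 95.1% against 40% and 84.0%. Cell cycle genes gave 5 of 36 (13.9%), namely the kinases CDK4 and CDK2, their inhibitors CDKN1B and CDKN2C, and the cyclin CCND2. The blood cell signaling list gave 8 of 59 (13.6%), the widest CD47, SPRED2, TNFRSF1A, TRIB1, ITGA4 and AKT1. TRIB1, a pseudokinase that promotes the breakdown of C/EBP proteins, was acetylated over all of its region in both ATRA libraries and over 85.7% and 71.7% in the control libraries. AKT1, a survival kinase, had only 8.6% and 4.0% under ATRA and 6.6% and 0% in the control.

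Few granule, mature neutrophil and HOX genes had H3K4me3 in all 4 libraries, so that the share of 6.60% over all genes would give fewer than 2 of them in stable broad regions. Of the 10 primary granule genes with H3K4me3 in all 4 libraries, only MPO started in a stable broad region. None of 40 mature neutrophil genes started in a stable broad region, where 14 of them had H3K4me3 in all 4 libraries, and none of 21 HOXA and HOXB genes did, where 2 had it. The retinoid list gave 2 of 14, RXRB and PML. In the RXRB region, which also holds RING1, H3K27ac covered 70.9% and 25.6% under ATRA and 42.8% and 26.2% in the control. The PML region had 20.6% and 39.8% under ATRA and 8.4% and 36.9% in the control.

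Long non-coding and microRNA host genes gave 8 of 33 (24.2%): MIR142HG, SNHG15, ZFAS1, NEAT1, MALAT1, SNHG5, MIR181A1HG and LINC00926. MIR142HG shared its region with SUPT4H1 and TSPOAP1, SNHG15 with MYO1G, and ZFAS1 with ZNFX1, all protein-coding. The share of 6.60% is over protein-coding genes, and none was computed over all non-coding genes. Of the 10 regions without a protein-coding TSS, 9 held another gene. The NEAT1 region, chr11:65184164-65199920, gives the scaffold RNA of paraspeckles and had H3K4me3 peaks of 15757 and 14079 bp under ATRA and 14285 and 11443 bp in the control, with 88.5% and 88.9% against 74.4% and 94.0% under H3K27ac. MALAT1, a nuclear RNA, had 28.9% and 45.2% against 25.7% and 42.1%. The others were LINC01962/TRIM7-AS2, MIR23AHG, DLEU1/DLEU2, SNHG5, MIR181A1HG, LINC00926 and a region with T cell receptor beta variable segments, TRBV11-2 and TRBV12-2. The T cell receptor region, chr7:142186800-142199549, had H3K4me3 peaks of 11677 and 12567 bp under ATRA and 10643 and 8929 bp in the control. Only chr8:1946661-1956922 held no TSS of a gene with a symbol, and 7724 to 8694 bp of it were under H3K27ac in the 4 libraries.

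H3K27ac was measured as the length of each region under H3K27ac peaks, which the rule did not use. Stable broad regions were acetylated over 47.9% and 53.8% of their summed length in the ATRA libraries and 35.3% and 46.4% in the control libraries. In the narrower stable regions it was 34.6%, 43.5%, 24.6% and 34.6%. The difference was 13.3, 10.3, 10.7 and 11.8 percentage points in the 4 libraries, a mean of 11.5 ± 1.35 points (SD, n = 4 libraries), with the broad regions higher in 4 of 4. The exact two-sided sign-flip permutation test over the 4 libraries gave p = 0.125, the smallest that 4 libraries allow, and 0.375 after Benjamini-Hochberg adjustment over 3 tests, of which the one on the selected widths is not reported. With only H3K27ac and H3K4me3 peaks of a −log10 q of at least 5, which left 12.8% to 16.9% of the H3K27ac peaks, the difference was 1.80 points. The shares themselves were much smaller there, 5.11% to 9.41% in the 360 broad regions so selected and 3.70% to 6.88% in the narrower ones. The broad regions were again higher in each library. Every broad region had H3K27ac in at least 1 library and 363 (96.5%) had it in each of the 4, against 81.6% of the narrower regions.

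Regions differed widely among themselves. A region's own share had a 10th percentile of 10.9% to 24.9% and a 90th percentile of 63.5% to 86.2% over the libraries. Single-gene regions were acetylated over 52.8% and 64.8% under ATRA and 41.4% and 58.1% in the control, and regions with 2 or more genes over 44.4% and 46.1% against 31.1% and 38.3%. In the narrower regions the same classes differed less, 34.4%, 44.1%, 24.4% and 35% with 1 gene and 34.5%, 40%, 24.4% and 31.4% with 2 or more. Among single-gene regions the 18 with a smallest width of at least 12 kb were at 66.0%, 76.6%, 56.0% and 72.6%, and the 115 below 10 kb at 49.3%, 62%, 38.0% and 54.6%. No test was made between these classes. At least 80% was acetylated in each library in 5 regions: ARHGEF2, LYL1, MIR23AHG, RHOG and MAP7D1/TRAPPC3.

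**Figure D4:**
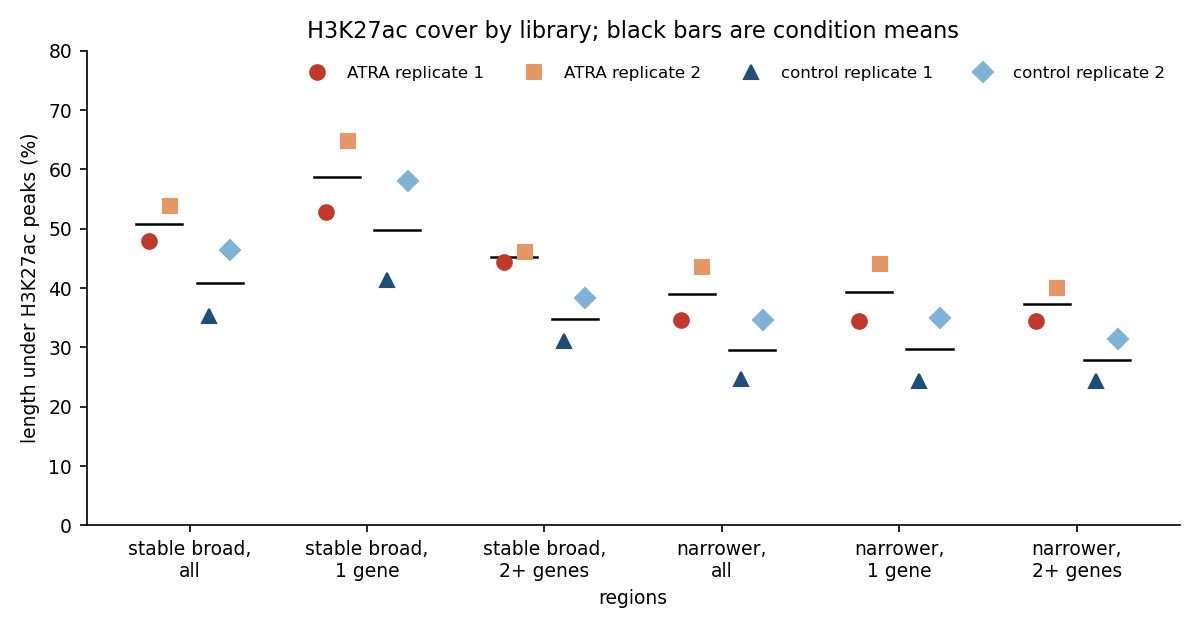
Percent of the summed length under H3K27ac peaks (y axis) in stable broad and narrower stable regions, all and by the number of protein-coding genes (x axis); symbols are the 4 libraries and black bars the means of the 2 libraries of a condition. Control replicate 1 is the lowest library in every class, and broad regions with 1 gene are the highest of the plotted classes in every library.

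The next comparison asked whether regions that were broad in both conditions differed between ATRA and control. The median longest H3K4me3 peak differed by 681 bp between the condition means, a description with no test since the rule used these widths. The median log2 change of width was 0.05 on the condition means, where it was 0.14 in the narrower regions and 0.18 over all 11413. Both ATRA libraries were wider than both control libraries in 121 regions (32.2%) and narrower in 33 (8.78%), where the same held for 39.6% and 5.44% of all 11413 regions. These widths are those the rule used, and control replicate 2 has fewer and shorter peaks throughout. Without that library, the rule gave 599 regions, with 238 wider in ATRA and 194 narrower.

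Among regions whose conditions did not overlap, those with the largest log2 excess of width under ATRA were JMJD6/METTL23/MFSD11/SRSF2, ARHGDIB, CREB3L4/CRTC2/DENND4B/JTB/SLC39A1 and ATP5F1B/BAZ2A. ARHGDIB, at chr12:15102094-15117064, had a peak of 14971 and 11276 bp under ATRA and 9386 and 8055 bp in the control, a log2 change of 0.59. At JMJD6/METTL23/MFSD11/SRSF2, with the splicing factor gene SRSF2, it was 18200 and 11490 bp under ATRA and 11335 and 8066 bp in the control, with 11490 and 11335 bp in the nearest libraries of the conditions. Those with the largest deficit were TNRC18, C20orf96/ZCCHC3, DNAJC4/FKBP2/NUDT22/PLCB3/PPP1R14B/TRPT1/VEGFB and MEF2D. TNRC18, at chr7:5456920-5472276, had 9459 and 9608 bp under ATRA and 15357 and 13489 bp in the control, a log2 change of -0.60. MEF2D, a transcription factor, had 9895 and 9543 bp under ATRA and 16646 and 11195 bp in the control. At the DNAJC4 region the widths were 17065 and 17883 bp under ATRA and 33881 and 17885 bp in the control, nearly equal in 3 of the 4 libraries.

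H3K27ac of the stable broad regions was 9.98 points higher in ATRA than in control on the condition means, with p = 0.333 by the exact two-sided permutation test of the 4 libraries, the smallest this design allows (adjusted 0.5). ATRA replicate 1 (47.9%) and control replicate 2 (46.4%) were closer to each other than to the other replicate of their condition. In both conditions the library numbered 2 had the larger share, and counts within each number are given at the end. The libraries stood in the same order by the total H3K27ac length called, which was 64.8 and 86.1 Mb in the ATRA libraries and 28.8 and 54.0 Mb in the control libraries, and the part that this amount has in the difference was not tested. Of all H3K27ac length, the regions held 3.78% and 3.20% in the ATRA libraries and 6.27% and 4.41% in the control libraries. Without control replicate 1 the difference was 4.40 points and without control replicate 2 it was 15.6 points. With the stricter −log10 q it was 2.28 points. The shares were then 6.27% and 9.41% in the ATRA libraries and 5.11% and 6.02% in the control libraries. In 141 regions (37.5%) both ATRA libraries had more H3K27ac than both control libraries and in 8 (2.13%) less. The same held for 34.3% and 4.49% of the narrower regions and for 29.3% and 3.92% of all 11413. The 11413 include 1221 regions (10.7%) with no H3K27ac in any library, which could not be called, whereas every stable broad region had some. The median log2 change of covered length was 0.26 (with 1000 bp added to each length), 0.24 in the narrower regions and 0.20 over all.

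The regions with the largest excess of H3K27ac under ATRA were FRS3/PRICKLE4/TOMM6, DEDD, DNAJC4/FKBP2/NUDT22/PLCB3/PPP1R14B/TRPT1/VEGFB, KLHDC3/MEA1/RRP36 and SQLE. At FRS3/PRICKLE4/TOMM6, chr6:41744813-41758881, with a fibroblast growth factor receptor adaptor and a mitochondrial import subunit, 8481 and 8597 bp were covered under ATRA and 1244 and 1098 bp in the control, a log2 change of 2.14. The H3K4me3 peak there overlapped between conditions, 14069 and 13182 bp against 13717 and 12436 bp. DEDD, a death effector domain protein gene at chr1:161095853-161107409, had 8948 and 8541 bp of H3K27ac under ATRA and 1464 and 1410 bp in the control, a log2 change of 2.00. In both regions the 2 libraries of a condition lay close together and far from those of the other condition. The DNAJC4 region had 23609 and 20170 bp under ATRA and 7201 and 8731 bp in the control. KLHDC3/MEA1/RRP36 had 3007 and 5081 bp under ATRA against 284 and 1676 bp. SQLE, an enzyme of cholesterol synthesis, had 1405 and 2074 bp against 0 and 200 bp.

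The 8 regions with less H3K27ac in both ATRA libraries were BCL11A, BAHCC1, TNRC18, ATF5/IL4I1/NUP62, AGAP3/FASTK/TMUB1, DDX41/DOK3, PRCC and LRRC41/UQCRH, all of them named because the count is small. BCL11A, a zinc finger repressor of blood cells at chr2:60773065-60786885, had 429 and 2894 bp of H3K27ac under ATRA and 6985 and 9984 bp in the control, a log2 change of -1.83. Its H3K4me3 peak was 10971 and 10425 bp under ATRA and 13821 and 10394 bp in the control. BAHCC1, a chromatin protein gene, had 226 and 6743 bp under ATRA and 10877 and 11001 bp in the control, with ATRA replicates far apart. TNRC18 had 3364 and 4953 bp against 12227 and 12095 bp, and its H3K4me3 peak was also narrower in both ATRA libraries. ATF5/IL4I1/NUP62, with a stress-response transcription factor, had 3154 and 3372 bp against 7897 and 6828 bp. AGAP3/FASTK/TMUB1 had 4606 and 2316 bp against 4737 and 7747 bp, with 4606 and 4737 bp in the nearest libraries of the conditions.

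Width and acetylation differed together in some regions and apart in others. Of the 121 regions wider in both ATRA libraries, 47 had more H3K27ac in both and 1 had less. Of the 33 narrower regions, 10 had more and 5 had less. Among the 222 regions whose widths overlapped between conditions, 84 had more and 2 had less. All 376 regions together gave 141 (37.5%) with more and 8 (2.13%) with less. The share with more among the wider regions was thus near that of all 376. Of the 8 regions with less, 5 were among the 33 narrower regions, a larger share than in all 376. A link between the calls of width and of H3K27ac was not tested. Over the 376 regions the Pearson correlation of both log2 changes was 0.241, a description across regions that share the same libraries.

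**Figure D5:**
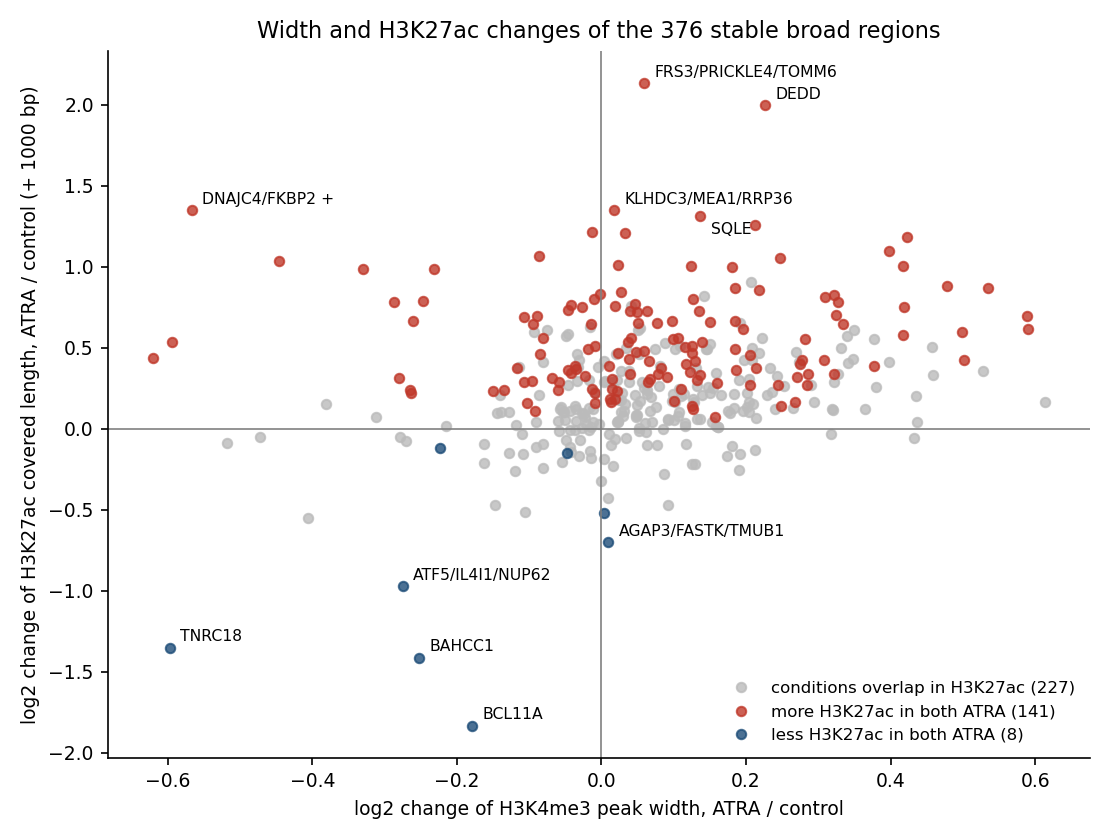
Log2 change of the H3K4me3 peak width (x axis) and of the H3K27ac covered length with 1000 bp added (y axis), ATRA over control on the means of 2 libraries, for the 376 regions; red and blue mark regions whose H3K27ac did not overlap between conditions. The 141 red regions lie on both sides of the vertical axis, and the 5 lowest blue regions, from AGAP3/FASTK/TMUB1 down to BCL11A, are named.

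Among the listed blood transcription factors in stable broad regions, 5 of 19 had more H3K27ac in both ATRA libraries (ZEB2, GFI1, LDB1, MZF1 and SPI1) and 1 had less (BCL11A). Of the 8 early response genes 4 had more (ZFP36, DUSP6, FOSL1 and ATF4), and of the 12 chromatin genes 3 (SETD1B, KDM5B and NSD3). Of the 14 ribosomal protein genes 3 had more, RPL7A and FAU among them. No gene of these 3 lists had less. Over all 376 regions 37.5% had more, and over all 11413 regions 29.3%. In lists this small the counts of the blood factors, chromatin and ribosomal protein genes lie near the second share, and no difference was tested. Counted within each replicate number, 12 of 19 blood factors and 9 of 12 chromatin genes had more. So did 7 of 8 early response and 7 of 14 ribosomal protein genes. There the share was 64.9% of the 376 regions and 44.7% of all 11413, of which 10.7% had no H3K27ac in any library.

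The base composition of the regions differed with the number of genes in them. Over all 376, the median GC content was 50.0% and the median ratio of observed to expected CpG 0.450, against 47.1% and 0.486 in the narrower regions. Single-gene regions had 47.7% and 0.502, and regions with 2 or more genes 51.7% and 0.433. The lowest GC content was 34.3% at MIR181A1HG and the highest 66.5% at KLF16. A RefSeq promoter of 300 bases (250 before and 50 after the start) was matched for 574 of the 702 genes, and short motifs were counted in it on both strands. The letters CCGGAAG, the core of the ETS family motif, were in 26.6% of the 447 promoters of genes that share a region and in 8.66% of the 127 promoters of genes alone in a region. In the promoters of narrower regions they were in 23.2% and in those of all protein-coding genes in 14.4%. The GC box GGGCGG was in 69.7% of the members' promoters, 72.3% of those of narrower regions and 59.2% of all. TATAAA was in 6.97%, 4.70% and 9.60%, and the E-box CACGTG in 11.5%, 10.9% and 8.91%. GAGGAAGT, an ETS variant that shares the letters GGAAG with the first motif, was in 2.79%, 2.66% and 2.53%, and TGTGGT, the core of the RUNX motif, in 10.1%, 8.89% and 10.9%. A match is a description of letters and not a site.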

How the data were processed

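Per the labels and the study's methods, adapters were removed, reads were aligned to hg19 (GRCh37) with Bowtie, and broad peaks were called in each of 8 libraries with MACS2. The authors deposited peak positions with −log10 q scores, used here only as a stricter threshold of 5. Their columns of fold enrichment and −log10 p were left out because they contain impossible numbers. Reads per peak are not given in the sources used here, so the depth is unknown.

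Peaks were merged and measured with Python 3.11.15, numpy 2.4.6 and pandas 2.3.3, p-values were adjusted with statsmodels 0.14.6, start sites came from GENCODE, and the scripts were tested on simulated peaks. Genes without a symbol in the annotation were not counted. The regions and gene lists were chosen with earlier results of these data known. Named were the 20 widest regions, the largest differences between conditions that did not overlap (5 each way for H3K27ac, 4 each way for width), up to 6 genes of each list, and regions at the 8 kb border or without a start site. Promoters followed for the first 6 genes and the first region of each H3K27ac direction, with TSPOAP1 and BCL11A not shown. Further list genes, microRNAs, regions without a protein-coding start and the most acetylated regions were named after their values were seen. Some regions and genes that these rules select are not reported here. Alternatives were other widths, gaps, thresholds, windows and start sites, and leaving out each library.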

Additional observations from a re-analysis of the deposited data

How the results depend on the processing

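All 10 results were recomputed under other settings, and 56 of 75 values were kept. Kept means the same direction for changes and differences, and within 1.5 times for counts. The percent with a protein-coding start had to stay inside the Wilson confidence interval of its main value. The number of regions was 1554 at 6 kb and 144 at 10 kb. Counting only the 5′ end of each gene, 92.8% of the regions held a protein-coding start. Leaving out 1 library at a time gave 391 to 599 regions selected on the other 3 libraries, 173 to 279 of them wider and 47 to 194 narrower. On the 376 regions themselves, 168 to 284 had more and 17 to 84 less H3K27ac. The counts of width and of H3K27ac both set 1 library against 2, a call more easily met. No share over all regions was computed beside them. The largest number of regions came without control replicate 2. The median log2 width change ran from 0.02 to 0.13 and the H3K27ac difference from 4.40 to 15.6 points. With a replicate block (differences within each replicate number), the median log2 width change was 0.06 and the H3K27ac difference 9.98 points, 12.6 points for number 1 and 7.33 for number 2, with an exact sign-flip p of 0.5. Peak names of equally numbered libraries carry a common tag, and the libraries' deviations over the regions correlated at 0.107 for width and 0.603 for H3K27ac. Over all 11413 regions these correlations were 0.178 and 0.496. Counted within each number, an alternative chosen after seeing the data, 165 regions (43.9%) were wider and 62 (16.5%) narrower. Of all 11413 regions, 53.0% were wider and 9.68% narrower. More H3K27ac was counted in 244 regions (64.9%) and less in 28 (7.45%), where 44.7% and 8.03% of all 11413 regions did. Of these 11413, 10.7% had no H3K27ac in any library and could not be called for it. Among the 19 blood factors 12 had more and 2 less. The labels do not say that the numbers pair the libraries. The block changed no direction. No result could pass a threshold of 0.05 with these numbers of libraries, and p-values say nothing about stability.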
